A study of Homo sapiens with 6 samples.

Results

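Assembled long non-coding RNA (lncRNA) transcripts were profiled in REH cells after silencing of the ETV6/RUNX1 fusion. Their probes carry TCONS accessions, the identifiers that transcript assembly software gives to transcripts put together from RNA sequencing reads. Members were all custom probes whose systematic name starts with TCONS_, except TCONS_00029322, TCONS_00029323 and TCONS_00029324. This gave 10562 probes of the 57176 probes on the array that are not controls, or of the 23042 probes of its lncRNA design. REH is an established human cell line from a B-cell precursor acute lymphoblastic leukemia (BCP-ALL). It bears the ETV6/RUNX1 fusion and has lost its other ETV6 allele, and both groups share this background. The control group holds 3 arrays of REH cells with a non-targeting shRNA, and the knockdown group holds 3 arrays of REH cells with an shRNA against the ETV6 moiety of the fusion. Cells received the shRNAs by lentivirus and were sorted on GFP, and each group rests on a single hairpin. According to the study's methods, the non-targeting hairpin was an ETV6 shRNA that did not hit the fusion transcript.

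LncRNAs are transcribed and often spliced like messenger RNAs but are not translated into protein. Some act on chromatin or on nearby genes and others work as scaffolds for proteins, whereas for most assembled transcripts no function is known. ETV6/RUNX1 joins part of the ETS family repressor ETV6 to nearly all of RUNX1, a transcription factor that hematopoiesis needs and that binds DNA through its Runt domain. Many lncRNAs are expressed at low levels and in few cell types. LNCipedia, a catalogue of human lncRNAs, names a transcript after a protein coding gene close to it. The gene in such a name is thus taken as a neighbour here, not necessarily the nearest, and not as the target of the lncRNA. Through lists of the study, 541 of the 10562 members received such a name. One of these lists was chosen on the same 6 arrays, so that a name is more likely for a member that moved and is no independent evidence of a change. The members are otherwise called by their accession, and their genome positions were not analysed here.

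For a pair of the lncRNAs among the members, lnc-NKX2-3-1 and lnc-TIMM21-5, the study designed antisense LNA gapmeRs, short oligonucleotides that pair with a transcript and direct its cleavage. Their sequences are shown because they are complementary to the stretches of these transcripts that the study targeted, and both lncRNAs are described with their array values below. Capitals mark the 8 bases that both lnc-TIMM21-5 gapmeRs hold, at the 5′ end of GapmeR1 and at the 3′ end of GapmeR2. In the last line they mark the pairing bases of a transcript stretch that was inferred from the gapmeRs.
lnc-NKX2-3-1 GapmeR1: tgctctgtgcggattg
lnc-NKX2-3-1 GapmeR2: ctgatttttagtagtg
lnc-TIMM21-5 GapmeR1: AATTTTGCatttggta
lnc-TIMM21-5 GapmeR2: gtcactttAATTTTGC
lnc-TIMM21-5 transcript: taccaaatGCAAAATTaaagtgac
The last line is the reverse complement of the joined lnc-TIMM21-5 gapmeRs, read 5′ to 3′, and no transcript sequence was read. If the gapmeRs overlap on the transcript by these 8 bases, they address a single site of 24 bases rather than separate ones. The lnc-NKX2-3-1 gapmeRs shared no more than 2 bases end to end. Of 16 bases each, GapmeR1 of lnc-NKX2-3-1 holds 9 G or C bases and its GapmeR2 holds 5, and those of lnc-TIMM21-5 hold 4 and 5.

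First, the arrays were checked. All 6 lay on 1 slide, with control 1 and control 2 in its first row and the others in its second row, and precision is limited by how few arrays there are. The median raw intensity of the members ran from 50.5 to 56 per array, against 42.25 to 48 for the negative control spots. Control 3 had the brightest negative controls, with a 0.95 quantile of 67.8 against 49 to 56.7 on the other arrays. Of the 2 probes of ETV6, the target of the shRNA, the one above background had normalized levels of 7.91, 8.05 and 8.37 in control and 7.49, 7.45 and 7.28 in knockdown. These values did not overlap, but the fitted change of -0.70 on the log2 scale missed the threshold (adjusted p = 0.0513, limma). None of 5 RUNX1 probes was called. Of 11 B-cell precursor marker genes, 10 were above background, as were 3 of 4 T cell, 3 of 5 myeloid, 1 of 2 erythroid and 2 of 4 stromal and epithelial genes with a probe, and none of these genes was called. With the replicate number as a block, CD22, CD79B and both IGLL1 probes were called higher in knockdown (adjusted p = 0.0265, 0.0367, 0.0379 and 0.0132, limma). CD3E, CD3G, S100A8, S100A9, HBB, COL1A2 and EPCAM were not well above background on any array by the scanner flag.

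A minority of the members gave a signal above background. A probe was counted as above background where its normalized value exceeded a threshold for its array, set at 1.1 times the 0.95 quantile over 308 negative control spots. The share was 26.8%, 23.9% and 19.6% on control 1 to 3, and 24.7%, 25.1% and 25.6% on knockdown 1 to 3. Control 1 had the highest share, control 3 the lowest, and the groups overlapped. The mean was 23.4% ± 3.61 (SD, n = 3) in control and 25.2% ± 0.466 (SD, n = 3) in knockdown. The difference of 1.71 percentage points did not exceed the spread (exact two-sided permutation test, p = 0.6), in a design that cannot go below 0.1. Without control 3, the array with the brightest negative controls, the difference was -0.21 percentage points. Without control 1, the array with the highest share, it was 3.38 percentage points and the groups did not overlap (exact two-sided permutation test, p = 0.1, the smallest it allows). By the flag of the scanner software for signal well above background, the shares were 28.1%, 26.1% and 23.1% in control and 26.1%, 25.9% and 26.7% in knockdown. The level of the share depended on the definition, with means of 6.44% and 6.90% in control and knockdown at 1.5 times the quantile, and of 33.1% and 35.5% with the threshold taken on raw intensities.

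**Figure D1:**
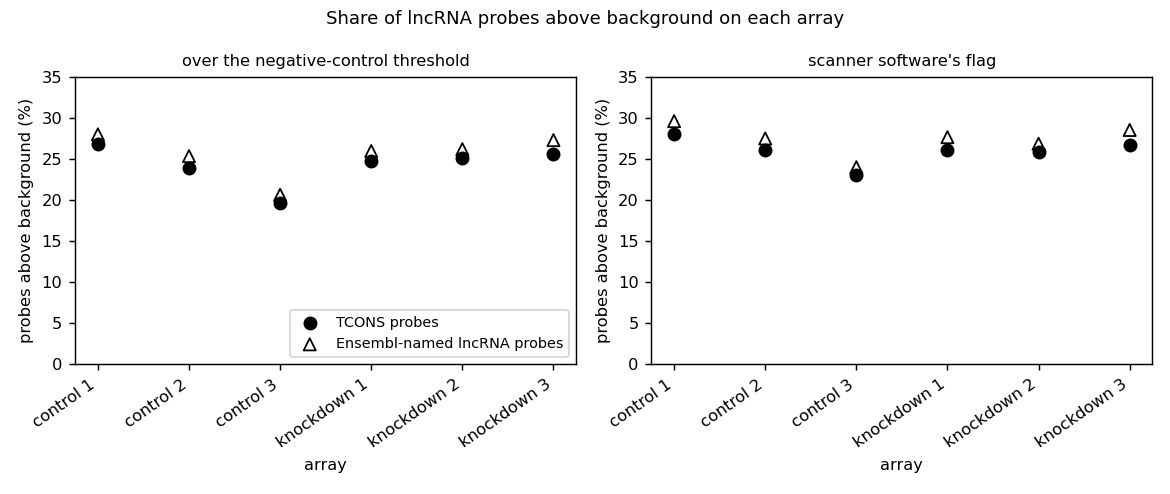
Share of TCONS probes (filled circles) and Ensembl-named lncRNA probes (open triangles) above background on each of the 6 arrays, in percent, by the negative control threshold (left) and by the scanner flag (right). TCONS probes lie below the Ensembl-named probes on all 6 arrays in both panels, and control 3 is lowest.

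The other 12425 lncRNA probes compared here carry Ensembl accessions, and 2789 of them list a TCONS accession as well. By the negative control threshold, the share above background was lower for TCONS probes on 6 of 6 arrays, with a mean difference of -1.29 percentage points and values from -1.67 to -1.04 on single arrays. An exact two-sided sign-flip test over the 6 arrays gave p = 0.03125, the smallest value that 6 arrays allow. Against the 9636 Ensembl-named probes that list no TCONS accession, a comparison chosen after seeing the data, the difference was -3.46 percentage points and ranged from -3.92 to -2.90. Against the 34134 catalogue probes of the array, most of them for protein coding genes, it was -38.0 percentage points (exact sign-flip test, p = 0.03125). The arrays are of 1 cell line and share its transcripts, so that these tests cover array to array variation only.

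Most members were detected on no array or on every array. Over the 6 arrays, 6713 members (63.6%) were above background on 0 arrays, 1799 (17.03%) on all 6 and 1080 (10.2%) on a single array. Only 253, 174, 215 and 328 were above it on 2, 3, 4 and 5 arrays. By the threshold, 4 members were above background on all control arrays and on no knockdown array, whereas 14 showed the opposite pattern. By the scanner flag these counts were 12 and 9, so that their order depended on the definition. The same patterns were not counted over all probes of the array, so these counts only describe the members.

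The median normalized level over all members was 5.21 in both groups, on a generalised log2 intensity scale. This scale approaches log2 for bright probes and compresses the changes of dim ones. The difference to the median of the catalogue probes was -1.63, with the members lower on 6 of 6 arrays (exact sign-flip test, p = 0.03125). The difference to Ensembl-named probes averaged -0.0127 over the 6 arrays, with the members lower on 4 of them (exact sign-flip test, p = 0.125). Both of these medians lay below the background threshold of every array, which ran from 5.66 to 6.15, so that this difference says nothing of expression. As the member median was not above background, the size of -1.63 against the catalogue probes is no measure of expression either. Among probes retained for testing the TCONS median was lower on 6 of 6 arrays, with a mean difference of -0.053 (exact sign-flip test, p = 0.03125). Levels of different probes also depend on the probe itself, so these are comparisons of probe classes and not of molecule numbers.

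A few members gave very bright signals, and none of the 5 brightest was called. The brightest retained probe, TCONS_00007197, had levels of 17.36, 17.33 and 17.21 in control and 17.17, 17.33 and 17.25 in knockdown. Its groups overlapped, with a log2 fold change of -0.05 ± 0.10 (SE). TCONS_00006556, TCONS_00000605, TCONS_00000095 and TCONS_00007198 followed, with values between 15.84 and 16.89 on single arrays. All of the 5 had overlapping groups, estimates between -0.11 and 0.04, and adjusted p-values from 0.747 to 0.920 (limma). None carries a LNCipedia name here, and no spot on the arrays was saturated.

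Next, knockdown was compared with control. Of the 10562 members, 2629 were above background on at least 2 of 3 arrays of a group and were tested together with all 27490 retained probes of the array. Of these members, 52 were called at an adjusted p under 0.05 (1.98%), 40 lower and 12 higher in knockdown. Over all retained probes 478 were called (1.74%), 1.28% lower and 0.458% higher. The members' share of calls was thus near the background. A change of 2-fold or more was found for 17 of the 52 called members, beside 176 of the 478 called probes. The estimates of the 2629 members had a median of -0.01, and 90% of them lay between -0.48 and 0.35 on the log2 scale. With the replicate number as a block, 109 members were called (73 lower, 36 higher), against 3.78% of all retained probes (2.42% lower, 1.35% higher), and all 52 were among them. Relative to spike-in controls, the median of all retained probes moved to 0.36, and the split of called members turned to 13 lower and 94 higher (4.07% called, beside 3.82% of all probes). The count of 52 fell to 26, 16 and 21 without control 1, 2 and 3, to 13 and 17 without knockdown 2 and 3, to 16 with no filter and to 28 with the slide row as a term. Without 1 of these 5 arrays, 0.494% to 0.989% of members were called, beside 0.695% to 1.03% of all probes. With no filter it was 0.151% beside 0.392%, and with the slide row 1.07% beside 0.826%. Each of the 52 kept its direction under each alternative that tested it. This was fixed in advance for refits of the same values and, as their groups do not overlap, for leaving out an array. Only other scalings, the deposited values and the slide row term could have changed a direction. With spike-in scaling, where the median moved to 0.36, 19 of the 52 stayed called. All directions below are therefore relative to the bulk of the probes.

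**Figure D2:**
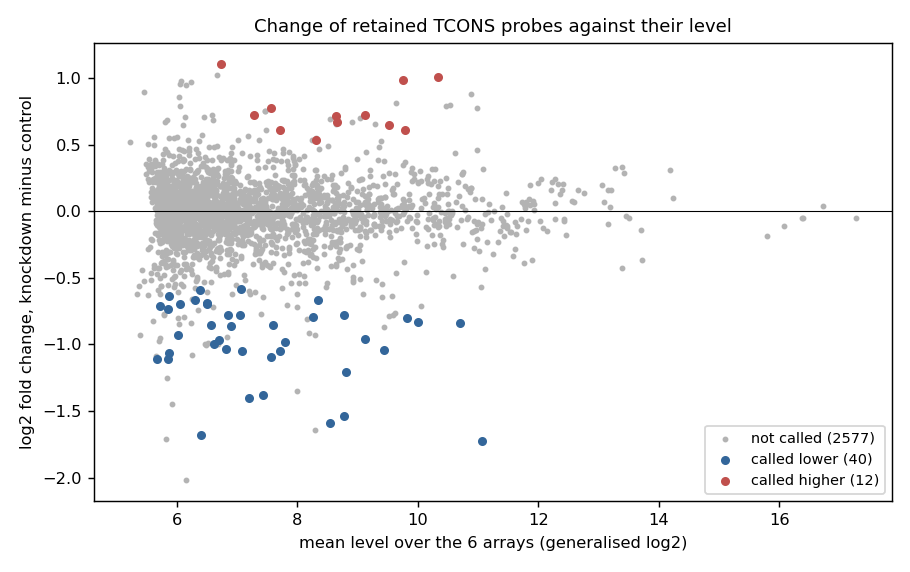
Log2 fold change (knockdown minus control) of the 2629 retained TCONS probes against their mean level over the 6 arrays on the generalised log2 scale, with 40 probes called lower in blue, 12 called higher in red and the rest in grey. The brightest probes lie close to 0, and called probes are found at low and high levels.

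Groups did not overlap for 469 of the 2629 members (17.8%), 261 lower and 208 higher in knockdown, and for 18.9% of all retained probes, 9.89% lower and 9.03% higher. The 52 called members were all among these 469. In addition, 10 members had estimates of 2-fold or more but were not called. For TCONS_00002080 the control values were 9.83, 6.61 and 5.01 and the knockdown values 5.44, 5.01 and 4.95, for an estimate of -2.02, with control 1 far above the other arrays. The called member with the highest adjusted p was TCONS_00010297 of lnc-RAD1-3 (0.0498), and TCONS_00012604 of lnc-ENPP1-4 just missed (0.0502).

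Among called members well above background in both groups, the largest decrease on the normalized scale was that of lnc-FAM160A1-6, whose neighbour encodes a protein of the FHF complex that links cargo to motor proteins. Its probe TCONS_00007410 had levels of 12.06, 11.98 and 11.73 in control and 10.55, 10.23 and 9.82 in knockdown. The groups lay more than 1 log2 unit apart, and the log2 fold change was -1.72 ± 0.19 (SE, adjusted p = 0.00399, limma). The second probe of this name, TCONS_00007661, fell by 1.59 on the log2 scale, from 9.48, 9.33 and 9.22 to 8.11, 7.77 and 7.38 (adjusted p = 0.00546).

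A probe of lnc-POTEB-2, TCONS_00023571, read 7.55, 7.14 and 7.04 in control and 5.47, 5.66 and 5.57 in knockdown. It was well above background on all control arrays and on no knockdown array. For such probes, each knockdown array got the higher of the own value and the lowest value of a probe well above background. Here the own value was used on each array, so the 3.20-fold decrease is a plain estimate and no lower limit (adjusted p = 0.00148, limma). The probe passed the filter through its control arrays alone, so that a difference was built into its selection. On the deposited log2 values and on the processed signal its estimates were -1.95 and -2.99, beside -1.73 and -1.75 for TCONS_00007410, whereas with normexp and quantile they were -1.10 and -1.68. The size of its decrease thus depended on the scaling. TCONS_00018859 of lnc-PPP2R2D-1, named after a regulatory subunit of the phosphatase PP2A, had levels of 9.74, 9.45 and 9.46 in control and 8.27, 8.04 and 7.73 in knockdown. It fell by 1.54 on the log2 scale (adjusted p = 0.00290). It stayed called under all 17 alternative settings.

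TCONS_00017714 of lnc-NKX2-3-1, the lncRNA whose gapmeRs are given above, had levels of 9.63, 9.41 and 9.18 in control and 8.27, 8.09 and 8.24 in knockdown. Every knockdown array lay below every control array, and the log2 fold change was -1.21 ± 0.13 (SE, adjusted p = 0.00426, limma). It is named after NKX2-3, a homeobox transcription factor gene. A probe of this lncRNA that is no member because it carries an Ensembl accession read 9.57, 9.44 and 9.18 in control and 8.39, 7.98 and 8.10 in knockdown, and was called as well (-1.24, adjusted p = 0.00638).

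In all, 8 called members, TCONS_00023571 among them, were well above background on all control arrays and on no knockdown array. Their decreases, computed in the same way, ran from 1.55-fold to 3.20-fold, and both ends are plain estimates rather than lower limits. These members passed the filter through the control arrays alone, and their number is a description. TCONS_00029093 of lnc-MRPL39-13, named after a gene for a mitochondrial ribosomal protein, read 6.17, 6.42 and 6.07 in control and 5.04, 5.11 and 5.19 in knockdown. It was at least 1.83-fold lower in knockdown. A pair of lnc-FRK-1 probes, TCONS_00012777 and TCONS_00012778, were at least 2.08-fold and 1.93-fold lower. FRK encodes a tyrosine kinase of the SRC family. TCONS_00006704 was the single called member without a name. It read 5.93, 6.25 and 6.05 in control and 5.34, 5.39 and 5.35 in knockdown, and was at least 1.60-fold lower. These lower limits hold on the normalized scale alone. With spike-in scaling, the log2 estimates of TCONS_00029093, TCONS_00012777, TCONS_00012778 and TCONS_00006704 were -0.75, -0.74, -0.70 and -0.35, and none was called. No called member was well above background on all knockdown arrays and on no control array.

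Among the called members that rose, TCONS_00009272 of lnc-SLC12A7-4 changed most on the normalized scale. SLC12A7 encodes a potassium chloride cotransporter. Its levels were 6.05, 6.21 and 6.27 in control and 7.58, 7.21 and 7.06 in knockdown, and it rose by 1.11 on the log2 scale (adjusted p = 0.0104, limma). Probes of lnc-IGFBP4-1, named after a binding protein of insulin-like growth factors, followed. TCONS_00025120 rose from 9.72, 9.82 and 9.94 to 10.64, 10.91 and 10.95, and TCONS_00025383 from 9.19, 9.42 and 9.17 to 9.94, 10.30 and 10.51. Their log2 fold changes were 1.01 and 0.99. TCONS_00025383 lost its call whichever control array was left out (limma adjusted p from 0.0608 to 0.0881).

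Smaller increases were found for lnc-WDR60-4, lnc-KATNAL1-3, lnc-AUH-4 and lnc-AMZ2-1. WDR60 encodes a subunit of the ciliary motor dynein-2, and KATNAL1 a protein related to the microtubule severing enzyme katanin. TCONS_00013663 and TCONS_00013662 of lnc-WDR60-4 rose by 0.77 and 0.71 on the log2 scale, whereas TCONS_00013109 of this name had an estimate of 0.55 and was not called (adjusted p = 0.0517). TCONS_00021953 of lnc-KATNAL1-3 read 8.87, 8.82 and 8.62 in control and 9.71, 9.37 and 9.38 in knockdown. TCONS_00016402 of lnc-AUH-4, near a gene for an RNA-binding mitochondrial hydratase, read 6.95, 6.97 and 6.83 in control and 7.77, 7.61 and 7.52 in knockdown. TCONS_00025970 of lnc-AMZ2-1, near a metalloprotease gene, rose from 8.33, 8.37 and 8.27 to 9.09, 8.98 and 8.91. These last 3 probes also lost their call whichever control array was left out, as did 8 of the 12 higher and 16 of the 40 lower members in all.

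**Figure D3:**
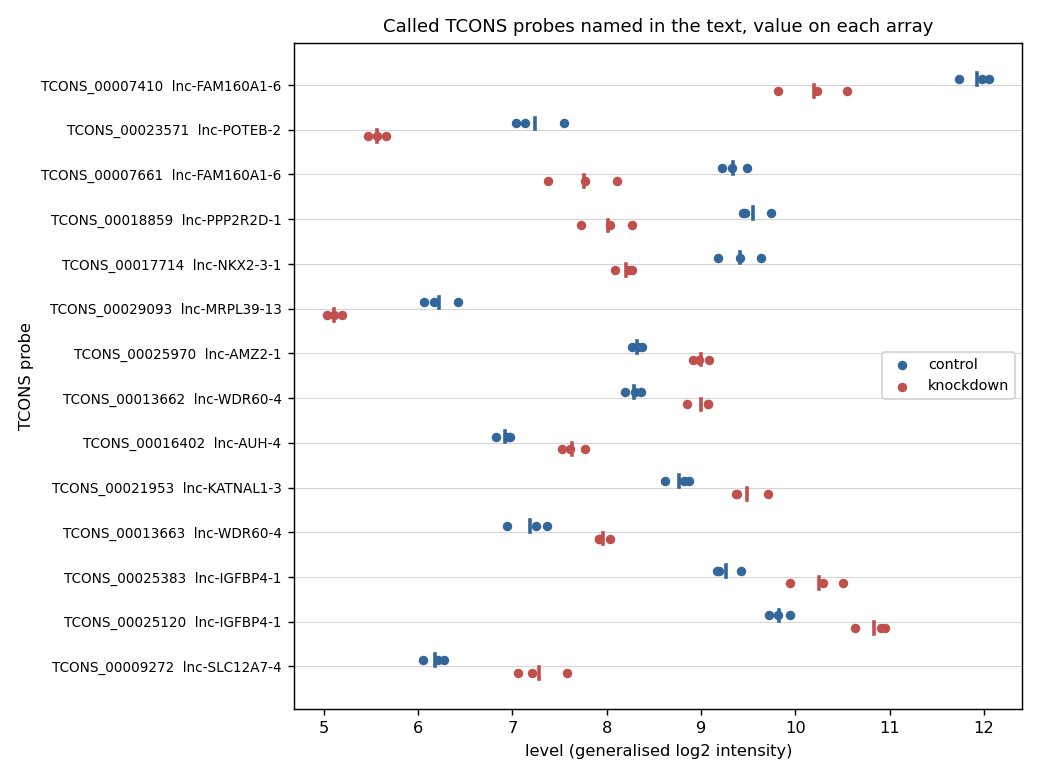
Level of 6 lower and 8 higher called TCONS probes named in the text on each of the 3 control arrays (blue) and 3 knockdown arrays (red), on the generalised log2 scale, with the group mean as a vertical bar. The groups do not overlap for any of these probes.

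Called members were then grouped by lncRNA. The 51 named calls belonged to 37 LNCipedia names, 28 with lower and 9 with higher members, and no name held calls in both directions. For 10 names, 2 or more members were called, and for 9 of these all retained members were called. Accession numbers carry the same structure, since 119 of 140 pairs of members with consecutive numbers and a name each (85%) shared that name. The 52 calls fell into 45 runs of consecutive numbers. Probes of 1 lncRNA can share exons and even target sequence, so they are not independent measurements of its change.

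For lnc-EIF2B5-2, near the gene of a subunit of the translation initiation factor eIF2B, all 5 members were called lower. None of them was called with spike-in scaling, and 2 or 3 of the 5 stayed called when single arrays were left out. TCONS_00006335 read 8.41, 7.997 and 8.30 in control and 7.28, 7.18 and 7.11 in knockdown, and fell by 1.05 on the log2 scale. TCONS_00007054 read 7.23, 6.97 and 7.16 in control and 6.20, 6.09 and 6.08 in knockdown, and fell by 0.99. The other 3 had log2 fold changes between -0.86 and -0.69. The 5 accessions lie in 2 runs of numbers, TCONS_00006335 to TCONS_00006337 and TCONS_00007053 to TCONS_00007054, and both runs fell.

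All 3 members of lnc-TGFBRAP1-6, named after a protein that binds TGF-beta receptors, fell, with log2 fold changes of -1.04, -0.96 and -0.67. TCONS_00005221 read 10.17, 9.94 and 9.74 in control and 9.10, 8.82 and 8.81 in knockdown. Of its Ensembl-named probes, all 5 were called lower as well. Both members of lnc-AKTIP-1, whose neighbour belongs to the same FHF complex as that of lnc-FAM160A1-6, fell by 1.05 and 1.04 on the log2 scale. For TCONS_00024657 control 1 read 8.03 and the other control arrays 7.47 and 7.31, against 6.72, 6.47 and 6.49 in knockdown. None of the members of lnc-TGFBRAP1-6 and lnc-AKTIP-1 was called with spike-in scaling, or without control 2, knockdown 2 or knockdown 3.

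Other names held many members of which few were called. All 11 members of lnc-KATNAL1-3 were retained, with log2 estimates from 0.49 to 0.88 and groups that did not overlap, yet 1 was called without a block and all 11 with the replicate block. Of lnc-ENPP1-4, 10 of 13 members were retained, with estimates from -0.87 to -0.40. A single one was called without the block, TCONS_00011952, and 9 with it. Of lnc-COL4A1-2, 5 of 6 members were retained, with 1 call without and 3 with the block.

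**Figure D4:**
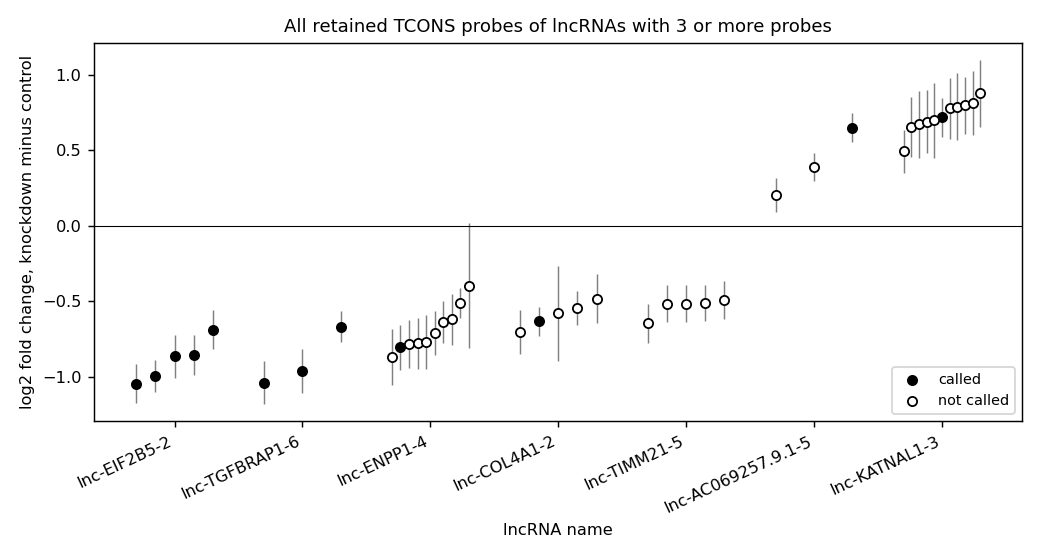
Log2 fold change (knockdown minus control, with SE as bars) of all retained TCONS probes of 7 lncRNAs, called probes filled and others open. Estimates of 1 name lie on the same side of 0 in each case, from all 5 called for lnc-EIF2B5-2 to none of 5 for lnc-TIMM21-5.

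Non-member probes of the same lncRNAs were set beside the called members. The names of called members were also given to 26 Ensembl-named probes of 9 lncRNAs, of which 24 were retained and 14 called, over 6 names. All 24 estimates had the sign of the called member. For lnc-SLC12A7-4 both Ensembl-named probes rose, by 1.21 and 1.22 on the log2 scale. For lnc-CISD2-3 the 2 retained ones fell by 0.99 and 0.97, beside a member, TCONS_00008181, that fell by 0.78. For lnc-KATNAL1-3, 1 of 8 was called. As the names come in part from a list chosen on these arrays, these counts are a description.

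The study associated 16 lncRNAs with the fusion in other samples, and 12 members carry a name from that list. One of them, TCONS_00017714 of lnc-NKX2-3-1, was called. The 5 members of lnc-TIMM21-5, the other lncRNA with gapmeRs above, had non-overlapping groups but were not called. The study, in contrast, counts lnc-TIMM21-5 among the lncRNAs changed by the fusion knockdown on its arrays of these cells (adjusted p under 0.05). The cause of this difference was not tested. TCONS_00026364 came closest, with 9.64, 9.90 and 9.65 in control and 9.27, 8.93 and 9.06 in knockdown and a log2 estimate of -0.65 (adjusted p = 0.0543, limma). The estimates of the other 4 ran from -0.52 to -0.49, with adjusted p-values up to 0.122, and none of the 5 was called with the replicate block. Under the 17 alternatives, TCONS_00026364 was called in 5 and TCONS_00026639 in 1, and the other 3 in none. For lnc-CPT2-7, TCONS_00000041 had a log2 estimate of 0.24 with non-overlapping groups (adjusted p = 0.323) and TCONS_00000199 had 0.23 with overlapping ones. TCONS_00023426 of lnc-TCF12-2, TCONS_00014684 of lnc-C8orf4-1 and TCONS_00014683 of lnc-C8orf4-2 had overlapping groups and estimates of 0.21, 0.32 and 0.04. TCONS_00014682 of lnc-C8orf4-2 did not pass the filter.

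To see whether neighbouring protein coding genes moved as well, the catalogue probes of the genes in the 37 names were read from the same fit. Of these names, 32 matched a catalogue probe, and 26 genes had a retained one, with 34 probes in all. A single probe was called lower and a single one higher, against 1.28% and 0.458% of all retained probes. With the replicate block 4 of the 34 were called, 1 lower and 3 higher, against 2.42% and 1.35% of all retained probes, with a further probe of CLEC2D and one of IGFBP4 (log2 estimate 0.46, adjusted p = 0.0428 with the block and 0.202 without it). That further CLEC2D probe passed the filter through its knockdown arrays alone, so the count includes a difference built into selection. The median log2 fold change was 0.04 over the 34 probes and -0.00109 over all retained catalogue probes. ELK3, an ETS domain transcription factor of the ternary complex factor group, fell from 8.58, 8.46 and 8.50 to 7.89, 7.59 and 7.31. Its log2 fold change was -0.92 ± 0.15 (SE, adjusted p = 0.0250, limma). TCONS_00020532 of lnc-ELK3-1 fell by 0.98, from 8.49, 8.36 and 8.02 to 7.34, 7.22 and 7.38. It lost its call with spike-in scaling, and without control 2, knockdown 2 or knockdown 3.

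CLEC2D encodes a lectin-like ligand of the natural killer cell receptor CD161, and its 3 retained probes disagreed. A_24_P241183 rose by 0.74 on the log2 scale, from 6.97, 7.34 and 6.94 to 7.81, 7.94 and 7.71 (adjusted p = 0.0368, limma). The much brighter A_32_P80068 had overlapping groups near 13.7 and an estimate of -0.08. The dim A_32_P95960 read 5.03, 5.23 and 5.44 in control and 5.64, 5.80 and 5.86 in knockdown, an estimate of 0.54 that was called with the replicate block (adjusted p = 0.0315) and not without it (0.112). It was above background on no control array and passed the filter through knockdown arrays alone. A difference was thus built into its selection. TCONS_00020316 of lnc-CLEC2D-7 rose by 0.54, from 7.97, 8.18 and 7.98 to 8.58, 8.65 and 8.52 (adjusted p = 0.0461). The probe of NKX2-3 read 7.54, 7.62 and 7.71 in control and 7.55, 7.67 and 8.06 in knockdown, and was not called. NETO1, a gene beside lnc-TIMM21-5 for an auxiliary subunit of glutamate receptors, had non-overlapping groups on its retained probe and a log2 estimate of -0.54 that was not called (adjusted p = 0.252). TIMM21, the gene in that name, had overlapping groups and an estimate of -0.07 (adjusted p = 0.867, limma).

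**Figure D5:**
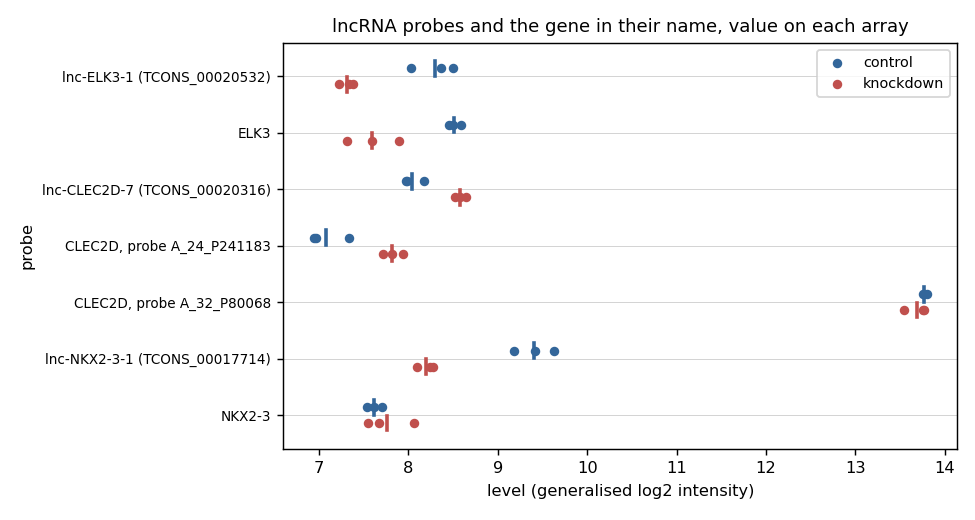
Level of 3 called TCONS probes and of probes for the gene in their name on each of the 3 control arrays (blue) and 3 knockdown arrays (red), on the generalised log2 scale, with the group mean as a vertical bar. The groups separate for lnc-ELK3-1 and ELK3, for lnc-CLEC2D-7 and 1 of the CLEC2D probes shown, and for lnc-NKX2-3-1 but not NKX2-3.

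The promoters of the called neighbours are shown because each of these genes has a probe called in the same direction as the lncRNA named after it. They come from RefSeq (GRCh38.p14), 250 bases before to 50 after the gene start, read 5′ to 3′ on the gene's strand, which is the forward strand for both. They were searched on both strands for TGTGGT and TGCGGT, core letters bound by RUNX proteins, and capitals mark a match.
ELK3, chr12:96194125-96194424: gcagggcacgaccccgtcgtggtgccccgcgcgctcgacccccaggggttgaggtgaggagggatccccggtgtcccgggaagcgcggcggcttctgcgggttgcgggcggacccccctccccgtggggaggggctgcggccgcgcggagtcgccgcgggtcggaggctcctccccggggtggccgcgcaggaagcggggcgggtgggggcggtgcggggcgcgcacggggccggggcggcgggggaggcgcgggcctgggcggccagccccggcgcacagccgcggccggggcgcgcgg
CLEC2D, chr12:9669463-9669762: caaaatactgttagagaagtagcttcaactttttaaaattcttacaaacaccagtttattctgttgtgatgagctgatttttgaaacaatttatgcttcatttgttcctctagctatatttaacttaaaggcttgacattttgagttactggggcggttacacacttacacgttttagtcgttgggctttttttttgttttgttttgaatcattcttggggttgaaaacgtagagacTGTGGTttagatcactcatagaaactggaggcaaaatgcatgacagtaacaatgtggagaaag
The ELK3 window holds no match. CLEC2D holds 1, TGTGGT, which starts 13 bases before the gene start. Of the 26 neighbour genes with a retained probe, 22 had a promoter in the table, and 3 of these (13.6%) held a match, beside 19.6% of all 35116 promoters. A match is a description of letters and not a binding site.

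Finally, a feature of the arrays that crosses the groups was described for the members. Control 1 and knockdown 1 differed together from the other arrays, and the contrast of replicate 1 against replicates 2 and 3, chosen after seeing the data, called 130 members (106 higher, 24 lower). This is 4.94% of the 2629 members, beside 5.69% of all retained probes, 3.66% higher and 2.03% lower. TCONS_00026598 of lnc-VAPA-1 read 7.48 and 7.56 on control 1 and knockdown 1, and from 5.52 to 5.91 on the other 4 arrays. TCONS_00006201 of lnc-CCDC37-2 read 10.04 and 9.59 on those arrays, and from 7.25 to 8.15 on the others. Probes of lnc-KLF15-3, among them TCONS_00007248, TCONS_00007249 and TCONS_00006633, were higher by 1.09 to 1.22 on the log2 scale.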

How the data were processed

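Total RNA of 6 REH cultures was labelled with Cy3 and hybridised to 1-color Agilent arrays, 1 array per sample, with 3 control and 3 knockdown replicates that the study calls biological. The authors extracted spot intensities with the software Feature Extraction (10.7.1.1). For each spot, the deposited scanner files give the raw median intensity, the background intensity and a processed intensity. Per the file headers they also hold other values, which flag saturated spots, outliers and spots well above background. These are not normalized between arrays. The authors also deposited normalized log2 values of 27869 probes (2694 members), made per the study's methods by VSN, a variance stabilizing transformation, with background subtracted and probes near the negative controls removed. Here the VSN model was rewritten without its package and fitted to the raw median intensity (least squares quantile 0.9), and the values correlated with the deposited ones at r from 0.99906 to 0.99967 per array, across probes. Outlier spots were left out and spots of a probe averaged. Each member accession has 1 probe. Probes above 1.1 times the 0.95 quantile of the negative controls on 2 of 3 arrays of a group were retained.

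Knockdown was set against control in limma 3.58.1 under R 4.3.3 (lmFit, eBayes, two-sided, no block, as the methods name none), with Benjamini-Hochberg adjustment over the 27490 retained probes and a threshold of 0.05. Shares used exact tests in Python 3.11.15. The smallest two-sided p of an exact test with 3 arrays a group is 0.1. Deviations from the group means correlated at 0.43, 0.29 and 0.20 between same-numbered arrays across probes, which sets replicate 1 apart as a pair. Control 2 and knockdown 3, and control 3 and knockdown 2, also correlated at 0.187 and 0.170. Deviations from a mean of 3 arrays cancel out, so a shared difference of replicate 1 alone can give such values. The pairing within replicates 2 and 3 therefore rests on the numbers in the labels. Over the members alone, control 2 correlated at 0.138 with knockdown 2 and at 0.143 with knockdown 3. Fits were tested on simulated data. Alternatives were other scalings and filters, the deposited values, a replicate block, a slide row term and leaving out each array. Members and lists were chosen with earlier results of these data known. Named were the 8 lower and 8 higher called accessions with the largest change, the 5 brightest, members of 16 lncRNAs of the study, and the 5 names with the most calls (1 of these names is not reported here); genes named beside them were chosen after their values were seen.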

Additional observations from a re-analysis of the deposited data

How the results depend on the processing

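The count of called members was 52, and it stayed within 1.5 times of that with the processed signal, normexp and quantile scaling, the deposited log2 values, the stricter filter, the threshold on raw intensities and the intensity trend. It was 107 with spike-in scaling, 16 with no filter, 28 with the slide row as a term, 109 with the replicate block and 132 with a term for replicate 1 (the raw threshold and the replicate 1 term were chosen after seeing the data). Without a filter, more probes are tested. The slide row term leaves only control 3 beside the knockdown arrays, and 6 of the 52 remained called. Leaving out 1 array gave 13 to 54 calls: 26, 16 and 21 without control 1, 2 and 3, and 54, 13 and 17 without knockdown 1, 2 and 3. All 52 kept their direction under the alternatives that tested them, 17 for 51 members and 16 for TCONS_00006704, which has no deposited log2 value. Refits of the same values and fits without 1 array could not change it, since the groups of these members do not overlap.

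The difference between groups in the share above background ran from -0.205 without control 3 to 3.38 percentage points when single arrays were left out. The level difference to Ensembl-named probes, -0.013 without a call, was -0.037 with the processed signal and -0.053 over retained probes (each exact p = 0.03125). The lower share of TCONS probes kept its sign and p under each definition of background. Averaging probes of an accession changes nothing, as each has 1 probe, and a slide column term was not run.

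Of 714 alternative values of the 42 named and tested members, 566 kept direction and side of the threshold, 124 lost a call, 6 gained one (5 of TCONS_00026364 and 1 of TCONS_00026639, both lnc-TIMM21-5) and 18 changed sign, all of them uncalled. With spike-in scaling, TCONS_00007197, TCONS_00000605, TCONS_00000095 and TCONS_00007198 turned to 0.314, 0.312, 0.316 and 0.254. With the slide row, TCONS_00007197, TCONS_00000605, TCONS_00000095 and TCONS_00023426 turned to 0.0379, 0.0358, 0.0621 and -0.0601. With the processed signal, TCONS_00000605, TCONS_00000095 and TCONS_00014683 turned to 0.00892, 0.0115 and -0.0683, and with normexp and quantile TCONS_00000605 and TCONS_00000095 to 0.000862 and 0.00357. With single arrays left out, TCONS_00006556 ran from -0.0306 to 0.141, TCONS_00000605 from -0.125 to 0.0436, TCONS_00000095 from -0.116 to 0.0400 and TCONS_00014683 from -0.00940 to 0.0698. The cause was not tested.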
